A study of Mus musculus with 5 samples.

Results

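The genes described here are 10 regulators of mammary lineage and secretory identity: the long noncoding RNA Pinc, the prolactin receptor Prlr, the signal transducers Stat5a and Stat5b, the ETS factors Elf5 and Ehf, the SOX factors Sox9 and Sox10, the forkhead factor Foxa1 and the zinc finger factor Gata3. They were picked by symbol from the 31053 genes of each matrix, and all 10 were measured. The list was chosen from earlier results on these same tumors, so their differences between treatments in epithelial cells are given as a description. Whether one of them passed the threshold of the fit across all genes is stated as a description too, and nothing is supported with it. Single-cell transcriptomes came from 15 tumors of MMTV-PyMT mice, in which the MMTV promoter drives the polyoma middle T antigen in mammary epithelium. All animals carried this transgene, so no normal gland was compared. Mice received the VEGF-A-blocking antibody B20-4.1.1 (9 tumors) or the isotype control IgG2a (6 tumors), intraperitoneally at 5 mg/kg, 2 times a week, for 6 weeks from 7 weeks of age. Sorted viable cells of 3 tumors, each from a different mouse per the labels and carrying its own oligonucleotide tags, were sequenced together as a pool. Every pool held 1 treatment only (2 isotype and 3 B20-4.1.1 pools), so pool and treatment cannot be told apart.

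As background, prolactin binds Prlr on luminal cells and activates the kinase JAK2, which phosphorylates the STAT5 proteins. STAT5 then enters the nucleus, binds DNA sites of the form TTCNNNGAA and switches on milk protein genes together with ELF5, the factor that specifies the secretory alveolar lineage. Pinc, pregnancy-induced noncoding RNA, is a long noncoding RNA of alveolar cells. GATA3 and FOXA1 act with the estrogen receptor in hormone-sensing luminal cells, while SOX9 and SOX10 are linked to progenitor states of the gland.

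The promoters are shown because they tell which of these genes carry the STAT5-type letters close to their start. In the RefSeq promoter table (GRCm38.p6, 250 bases before to 50 after each start) 7 of the 10 genes matched, with 12 starts, and Sox9, Sox10 and Ehf had no entry. The motif TTCNNNGAA reads the same on both strands. It was present in 2 of the 7 genes, Pinc and Prlr, the latter at 1 of its starts, and in 8.30% of all 32851 promoters of this length. Capitals mark the motif in the 250 bases before the start of each gene, with promoters of 2 casein genes for comparison.
Pinc, chr1:73407570-73407819, minus strand: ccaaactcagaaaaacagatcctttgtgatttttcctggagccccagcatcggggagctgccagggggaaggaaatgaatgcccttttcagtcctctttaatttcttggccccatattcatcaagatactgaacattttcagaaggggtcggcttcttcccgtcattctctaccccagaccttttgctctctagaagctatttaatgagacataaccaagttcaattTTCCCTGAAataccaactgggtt
Prlr, chr15:10223656-10223905, plus strand: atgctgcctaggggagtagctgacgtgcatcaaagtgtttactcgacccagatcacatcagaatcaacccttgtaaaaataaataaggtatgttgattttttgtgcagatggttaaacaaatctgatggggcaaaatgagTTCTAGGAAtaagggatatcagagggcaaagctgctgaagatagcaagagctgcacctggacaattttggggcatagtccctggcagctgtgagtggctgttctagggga
Csn1s1, chr5:87665958-87666207, plus strand: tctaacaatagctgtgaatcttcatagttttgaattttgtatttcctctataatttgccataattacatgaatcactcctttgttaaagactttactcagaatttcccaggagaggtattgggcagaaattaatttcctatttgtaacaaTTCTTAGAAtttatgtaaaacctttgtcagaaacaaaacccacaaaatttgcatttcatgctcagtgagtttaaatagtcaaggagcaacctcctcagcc
Csn2, chr5:87699426-87699675, minus strand: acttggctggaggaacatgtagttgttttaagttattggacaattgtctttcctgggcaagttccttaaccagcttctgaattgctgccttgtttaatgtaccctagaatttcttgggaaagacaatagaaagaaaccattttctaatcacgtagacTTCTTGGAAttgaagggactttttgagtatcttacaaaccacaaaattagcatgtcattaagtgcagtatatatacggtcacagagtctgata
The first base of the motif lay at -23 in Pinc, -110 in Prlr, -100 in Csn1s1 and -93 in Csn2. Among the genes of the prolactin pathway list, 2 of the 10 with a promoter entry held it, Cish and Socs3, and among the milk genes 4 of 10 did. Cish, a feedback inhibitor of STAT5 signaling, held it at +1 and +12 (chr9:107296654-107296683, plus strand). These 30 bases, from just before its start, show the pair of motifs in capitals.
Cish: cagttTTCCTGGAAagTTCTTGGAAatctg
A match describes the letters only, and binding was not measured.

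In the GRCm38 annotation, Pinc is an intergenic noncoding gene of the minus strand (chr1:73390775-73407569) and the other 9 are protein-coding. Ehf (chr2:103263433-103303278) and Elf5 (chr2:103411688-103450989), on opposite strands, are separated by 108409 bases. Stat5b (chr11:100780731-100850724) and Stat5a (chr11:100859351-100885169) are divergent neighbors 8626 bases apart. They are close paralogs, so reads in near-identical stretches could be lost or shared between them. The remaining genes were Prlr (chr15:10177238-10349180), Sox9 (chr11:112782224-112787760), Sox10 (chr15:79154908-79165240), Foxa1 (chr12:57540628-57546916) and Gata3 (chr2:9857078-9890034).

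Of 30340 deposited cells, 19533 passed the limits on UMIs (molecules counted once each) and mitochondrial content, and 13412 (68.7%) were taken as epithelial, with at least 5 UMIs of Epcam, Krt8 and Krt18 together and none of Ptprc. Each tumor gave between 80 and 1931 epithelial cells and between 904033 and 18442836 epithelial UMIs. Krt19, an epithelial keratin that the gate did not use, stood at 5.04 UMIs per 10000 in these cells and 0.172 in T-like cells, and the 7 epithelial markers together at 55.4 to 73.6 in isotype and 72.7 to 109 in B20-4.1.1 tumors. Averaged over all epithelial cells, listed markers of T cells, macrophages, B cells, endothelium and fibroblasts each stood at or below 0.0978 per 10000, and the highest neutrophil marker at 1.36. Single tumors stood higher. The summed level of the 6 T cell markers in epithelial cells was 0.0643 to 0.129 in isotype and 0.104 to 1.05 in B20-4.1.1 tumors, and that of the 7 macrophage markers 0.124 to 0.684 and 0.157 to 1.02. The 6 fibroblast markers together reached 0.547 in isotype and 1.46 in B20-4.1.1 tumors. In epithelial cells with no UMI of Cd3d, Cd3e, C1qa, C1qb or Lyz2 the Pinc difference was -1.52 (log2 fold change), and the part of the other markers was not tested. In all, 94 barcodes occurred in more than 1 tumor, 0 of them within a pool. The 3 tumors with fewer than 300 epithelial cells (80, 157 and 284) were all in the B20-4.1.1 group, and the first isotype pool stood apart from the second in many genes, so results were also computed without them. That pool was shallower, with medians of 2192 to 2423 UMIs per deposited cell. The second isotype pool had 6034 to 6582 and the B20-4.1.1 tumors 2819 to 9834. Own tags made up 84.3% to 92.1% of tag UMIs in the first and 95.2% to 97.6% in the second isotype pool. Whether this bears on the gene differences was not tested.

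Pinc was lower in B20-4.1.1 epithelial cells. Of the 10 genes it alone was called lower and 0 were called higher, a count that follows from how they were chosen. Over all 12232 genes tested, 6.95% were called lower and 7.41% higher at an adjusted p under 0.05 (edgeR quasi-likelihood test). In the first isotype pool Pinc stood at 0.538, 0.607 and 0.584 UMIs per 10000, and in the second at 0.768, 0.655 and 0.637. The B20-4.1.1 tumors stood at 0.242, 0.253 and 0.176 in the first pool, 0.122, 0.301 and 0.217 in the second and 0.0762, 0.217 and 0.204 in the third. Every B20-4.1.1 tumor was below every isotype tumor, a separation in this direction that held for 1.27% of all genes tested. The group means were 0.632 ± 0.0787 (SD, n = 6) and 0.201 ± 0.0685 (SD, n = 9), a log2 fold change of -1.56 (SE 0.20), or 2.95-fold lower.

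The log2 fold change of Pinc was -1.77 without the first and -1.29 without the second isotype pool. With pool as a random effect in a limma voom fit, in which 0.27% of all genes were called, the Pinc difference was -1.57 (SE 0.36) and not called, and sums per pool gave -1.50, also not called. It was -1.49 without the 3 tumors of fewest epithelial cells. Fewer cells held a Pinc UMI as well. After each cell was thinned to 2500 UMIs, Pinc was detected in 10.7% to 13.5% of epithelial cells of isotype tumors and in 1.50% to 6.33% of those of B20-4.1.1 tumors. Without thinning these ranges were 19.4% to 26.0% and 5.09% to 15.5%. The same thinned share was 0.550% of T-like cells (95% Wilson interval 0.334 to 0.905%) and 0.489% of macrophage-like cells (0.237 to 1.01%), classes in which little Pinc was counted. Median depth was 8676 UMIs in epithelial, 4099 in T-like and 6538 in macrophage-like cells.

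**Figure D1:**
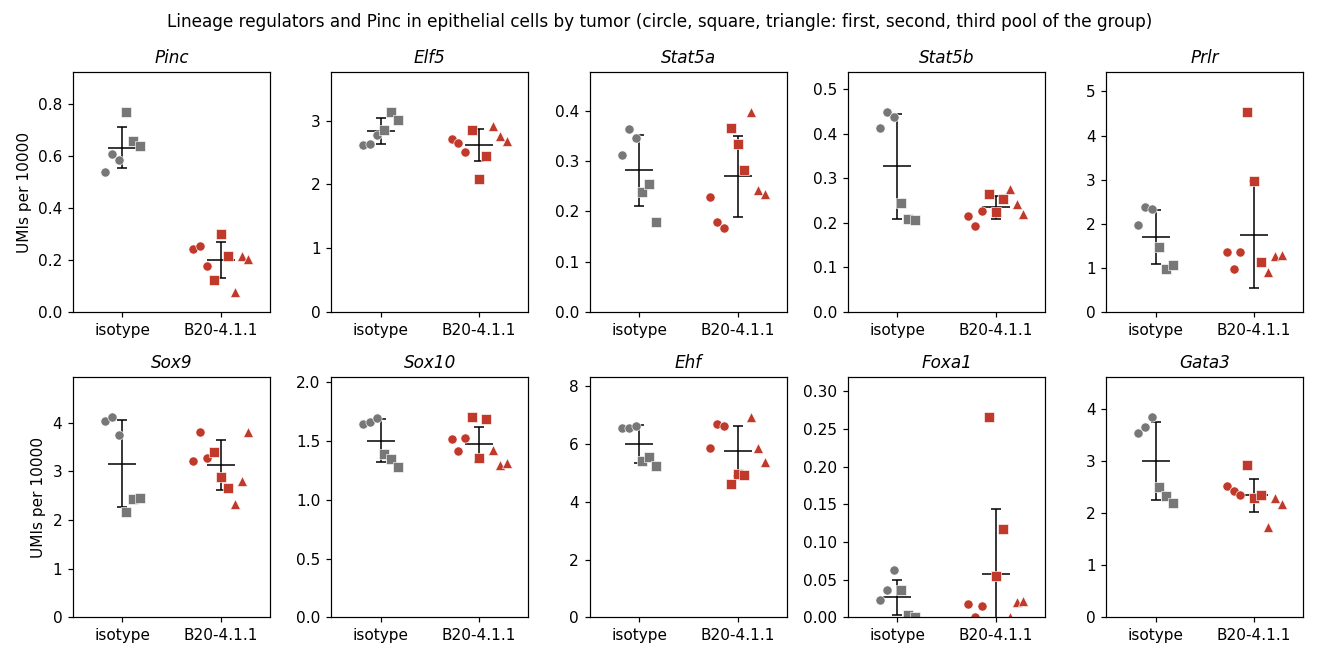
Level of each of the 10 genes in epithelial cells (UMIs per 10000, vertical axis) in every tumor, by treatment. Points are tumors shaped by pool, lines are means with bars of 1 SD, and Pinc is the gene whose B20-4.1.1 tumors (0.0762 to 0.301) all sit below the isotype tumors (0.538 to 0.768).

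The prolactin receptor and the STAT5 genes overlapped between treatments. Prlr ranged from 0.980 to 2.38 per 10000 (median 1.73) in isotype and from 0.903 to 4.54 (median 1.30) in B20-4.1.1 tumors. The groups overlapped, and the highest tumors of all were 2 B20-4.1.1 tumors of the second pool, at 4.54 and 2.96. The log2 fold change was 0.10 (SE 0.30). Stat5a ranged from 0.178 to 0.364 (median 0.283) and from 0.167 to 0.397 (median 0.243), with a log2 fold change of 0.02 (SE 0.18). Stat5b ranged from 0.207 to 0.448 (median 0.329) in isotype and from 0.194 to 0.275 (median 0.227) in B20-4.1.1 tumors, with a log2 fold change of -0.37 (SE 0.15). Its isotype tumors fell apart by pool, with 0.412 to 0.448 in the first and 0.207 to 0.245 in the second, and the second pool lay within the B20-4.1.1 range. Without the first isotype pool the Stat5b difference was 0.06, and without the second it was -0.69.

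The ETS factors overlapped between treatments. Elf5 ranged from 2.62 to 3.14 per 10000 (median 2.82) in isotype and from 2.09 to 2.91 (median 2.68) in B20-4.1.1 tumors, with a log2 fold change of -0.05 (SE 0.10). Ehf ranged from 5.23 to 6.63 (median 6.06) and from 4.60 to 6.93 (median 5.87), with a log2 fold change of 0.03 (SE 0.10). The Elf5 difference turned from -0.22 to 0.17 depending on which isotype pool was left out. Thinned detection was 44.4% to 49.0% of isotype and 31.4% to 48.8% of B20-4.1.1 epithelial cells for Elf5, and 64.5% to 73.2% and 53.1% to 71.9% for Ehf.

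The SOX factors overlapped as well. Sox9, a progenitor factor, ranged from 2.16 to 4.11 per 10000 (median 3.10) in isotype and from 2.33 to 3.81 (median 3.22) in B20-4.1.1 tumors, with a log2 fold change of 0.09 (SE 0.13). Sox10, a factor of neural crest and mammary progenitors, ranged from 1.28 to 1.70 (median 1.52) and from 1.30 to 1.70 (median 1.42), with a log2 fold change of 0.05 (SE 0.07). The first isotype pool was high for both, at 3.74 to 4.11 for Sox9 against 2.16 to 2.46 in the second.

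Gata3, which maintains luminal identity, ranged from 2.19 to 3.84 per 10000 (median 3.02) in isotype and from 1.73 to 2.93 (median 2.35) in B20-4.1.1 tumors, with a log2 fold change of -0.27 (SE 0.10). The 3 tumors of the first isotype pool (3.54 to 3.84) were above every other tumor, and the second pool (2.19 to 2.49) lay within the B20-4.1.1 range. The difference was -0.04 without the first isotype pool and -0.46 without the second. Foxa1, which opens chromatin for the estrogen receptor, was rare, with 315 UMIs in all epithelial cells. It ranged from 0 to 0.0624 per 10000 (median 0.0297) and from 0 to 0.266 (median 0.0200), with a log2 fold change of 0.49 (SE 0.91). The 2 tumors with no Foxa1 UMI, 1 in each group, allow up to 0.00163 and 0.00248 per 10000.

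**Figure D2:**
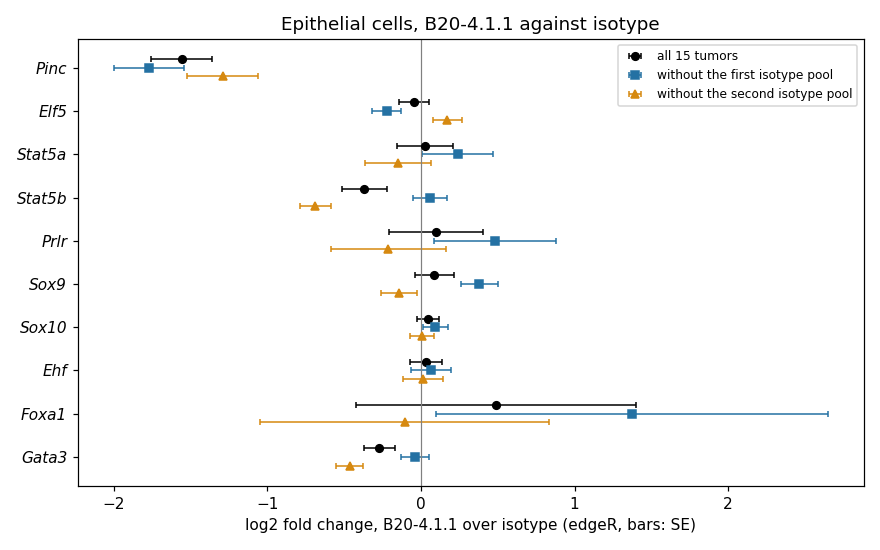
Log2 fold change of each of the 10 genes in epithelial cells, B20-4.1.1 against isotype, with bars for 1 SE and marks for the fits without each isotype pool. Pinc lies at -1.56, away from 0 in all fits, whereas Gata3 and Stat5b move to -0.04 and 0.06 without the first isotype pool.

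In the other classes few of the 10 genes had enough counts for the comparison of treatments. In T-like cells 3 were tested, with log2 fold changes of 0.26 (SE 0.17) for Gata3, 0.52 (SE 0.30) for Stat5a and 0.32 (SE 0.35) for Stat5b. Of these 0 were called, and 0 of all 6307 genes (0%) by edgeR, where 959 genes had an unadjusted p under 0.05. The number of genes called there was 20 when the second isotype pool was left out and 223 when the third B20-4.1.1 pool was. In macrophage-like cells only Stat5b was tested, with -0.38 (SE 0.28) and no call, against 0.0743% of all 6729 genes called (5 genes, and 572 without the second isotype pool).

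Where the genes were transcribed was compared within tumors, which holds treatment and pool constant. The log2 ratio of epithelial to T-like or macrophage-like levels was tested by an exact two-sided sign-flip permutation over tumors, adjusted over 20 comparisons, of which 18 passed. The genes were picked as regulators of mammary lineage, so higher epithelial levels were likely beforehand. The count and p-values are thus a description. Pinc was higher in epithelial than in T-like cells in 15 of 15 tumors (mean log2 ratio 3.97, SD 1.44, adjusted p = 0.000163, exact test) and higher than in macrophage-like cells in 14 of 14 (4.41, SD 1.25). Elf5 (5.32 and 5.84), Ehf (5.56 and 6.08), Sox9 (5.43 and 6.07), Sox10 (4.75 and 5.26) and Prlr (5.86 and 6.02) were higher in epithelial cells in every tumor of both comparisons. Gata3 was 6.06 higher than in macrophage-like cells but only 1.99 higher than in T-like cells (log2 ratios), where it is a known factor of helper T cells. Stat5b went the other way against T-like cells, with a mean log2 ratio of -0.55 (SD 0.50), higher in epithelial cells in 1 of 15 tumors (adjusted p = 0.000646, exact test). Stat5a was higher than in T-like cells in 13 of 15 tumors (0.65, SD 0.52). Against macrophage-like cells Stat5b was 0.34 higher (11 of 14 tumors, adjusted p = 0.0339, exact test), a call lost in 4 of the 5 fits without a pool. Foxa1 had 315 UMIs in epithelial, 3 in T-like and 0 in macrophage-like cells. Its mean log2 ratio of 0.57 to T-like cells did not pass and became 2.15 with a pseudocount of 0.1 in place of 0.5.

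Within the epithelial cells of each tumor, Pinc and Elf5 followed the summed level of 5 milk protein genes, most of it Csn3. Cells were ordered by the summed UMIs per 10000 of 5 milk genes (Csn1s1, Csn1s2a, Csn2, Csn3 and Wap), and the top 25% of cells (milk-rich) was set against the bottom 25% (milk-poor). Pinc stood at a mean of 0.619 per 10000 in milk-rich and 0.104 in milk-poor cells, a mean log2 ratio of 2.90 (SD 1.34), higher in milk-rich cells in 15 of 15 tumors. Elf5 stood at 3.20 and 1.79 (0.84, SD 0.22, 15 of 15), and Sox9 went the other way with 2.68 and 3.82 (-0.49, SD 0.34, higher in 1 of 15). Each of these 3 had an adjusted p of 0.000916 (exact sign-flip permutation over tumors, 30 comparisons, 14 passed), from an unadjusted p that 15 tumors allow down to 6.1e-05. Stat5a (-0.06), Stat5b (0.12), Sox10 (0.02), Ehf (-0.10) and Gata3 (0.19) did not pass in this split. Prlr was lower in milk-rich cells in 12 of 15 tumors, at 1.12 against 3.50 per 10000 (-1.20, SD 1.34, adjusted p = 0.00311, exact test). Foxa1 had 4 UMIs in milk-rich and 304 in milk-poor cells.

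The Pinc difference between treatments was present in every bin of the summed milk genes. Most of that sum was Csn3, at 152 to 204 per 10000 in isotype and 131 to 240 in B20-4.1.1 tumors. Cells were thus binned chiefly by Csn3, which was not called between treatments, whereas Csn1s1 and Csn1s2a were called lower. In cells with under 20 milk UMIs per 10000 Pinc was 0.0347 to 0.125 per 10000 in isotype and 0 to 0.0218 in B20-4.1.1 tumors, and at 20 to 100 it was 0.188 to 0.374 and 0.00782 to 0.124. At 100 to 300 the ranges were 0.628 to 0.838 and 0.108 to 0.512, and at 300 or more 0.640 to 1.38 and 0.121 to 0.606. The groups did not overlap in any of the 4 bins, while Elf5 overlapped in each (for example 2.81 to 3.12 and 2.47 to 3.83 at 100 to 300). Only tumors with at least 20 cells in a bin entered, so the B20-4.1.1 ranges rest on 7, 8, 9 and 8 tumors. The lowest bin held 5 Pinc UMIs in B20-4.1.1 cells, with a median tumor of 0. These bins re-cut the cells of the whole-tumor difference and add no support to it. The share of all genes separated within a bin was not counted. In the milk-poor cells of each tumor, which the split sets by share, Elf5 did not overlap between groups, at 1.91 to 2.39 in isotype and 1.24 to 1.81 in B20-4.1.1 tumors. The share of all genes separated there was not counted either. Milk-poor cells included 109 of the 115 cells with hormone-sensing genes described below. Elf5 stood at 0.262 per 10000 in those 115 cells and 2.80 in other epithelial cells. Whether this bears on the Elf5 separation was not tested. Elf5 overlapped in milk-rich cells (2.84 to 3.93 and 2.48 to 4.07). The summed level of the milk genes overlapped too, at 159 to 242 per 10000 in isotype and 133 to 242 in B20-4.1.1 tumors.

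**Figure D3:**
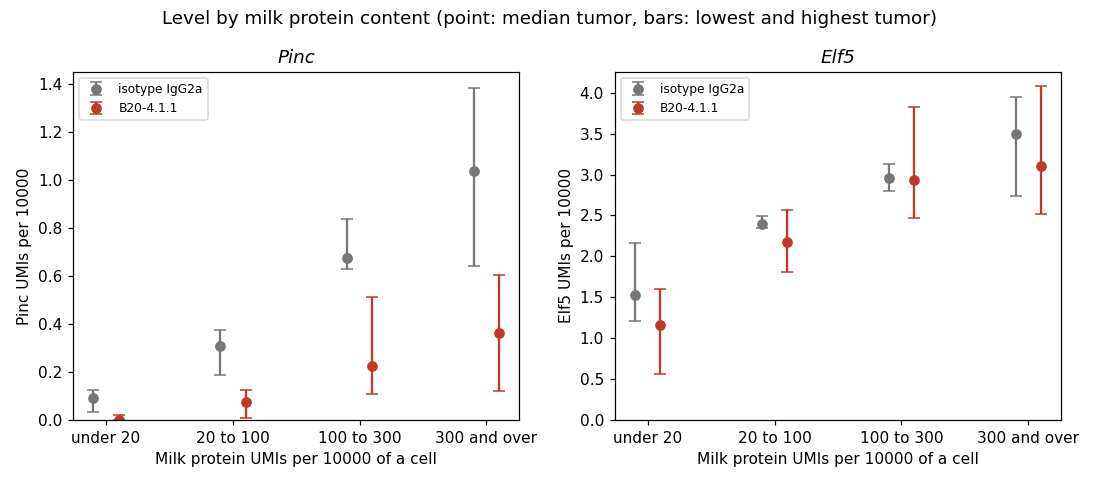
Pinc and Elf5 (UMIs per 10000, vertical axis) in epithelial cells binned by the summed level of 5 milk protein genes (UMIs per 10000, horizontal axis), points at the median tumor and bars from the lowest to the highest tumor with at least 20 cells in the bin. Pinc rises with this sum, which is mostly Csn3, in both groups. Its B20-4.1.1 tumors lie below the isotype tumors in each bin (0.121 to 0.606 against 0.640 to 1.38 in the highest), while Elf5 overlaps.

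Cycling cells, with at least 2 UMIs of Mki67 and Top2a against 0, held less of several factors. Elf5 (-0.36, SD 0.14), Sox9 (-0.57, SD 0.36), Sox10 (-0.22, SD 0.10) and Ehf (-0.38, SD 0.13) were each lower in 11 of 11 tumors (log2 ratios, adjusted p = 0.00311, exact test). Pinc was lower in 9 of 11 (-1.42, SD 1.29, adjusted p = 0.0126, exact test). After thinning the Sox10 ratio was 0.0070 and no longer passed, while those of Elf5, Sox9, Ehf and Pinc still did, and Pinc lost the call without either isotype pool (-1.29 in both fits). Prlr (-0.21), Gata3 (-0.21), Stat5a (0.07) and Stat5b (0.00) did not pass.

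Cells with basal keratins, with at least 3 UMIs of Krt5 and Krt14 against 0, held less Gata3, Pinc, Prlr and Stat5a. The split rests on Krt14, at 0.563 per 10000 in epithelial cells, since Krt5 was nearly absent at 0.00313. Gata3 was lower in 12 of 12 tumors, at 1.99 against 2.70 per 10000 (log2 ratio -0.46, SD 0.25, adjusted p = 0.00293, exact test). Pinc (-0.85, lower in 11 of 12), Prlr (-0.63) and Stat5a (-0.45), both lower in 10 of 12, also passed. With a limit of 1 UMI of the basal keratins Pinc (-0.49) and Stat5a (-0.11) did not. Elf5 (-0.09), Ehf (-0.01), Sox9 (0.10), Sox10 (0.11) and Stat5b (-0.41) did not. Foxa1 had 1 UMI in the basal keratin and 1 in the cycling cells, and no direction is read from it.

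**Figure D4:**
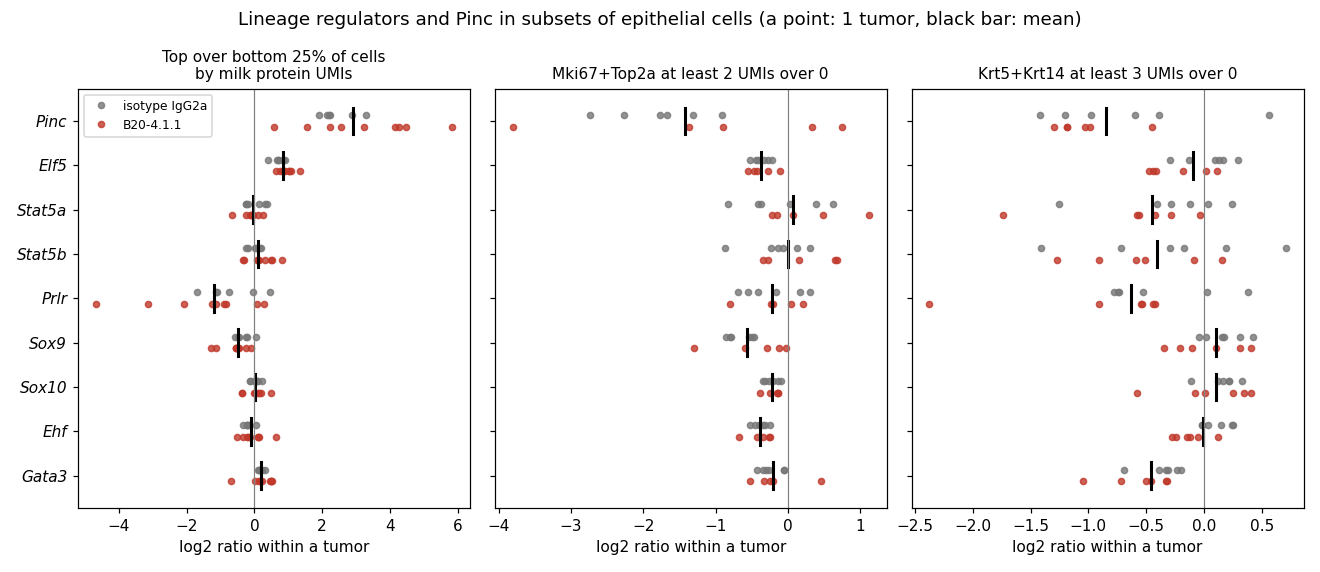
Within-tumor log2 ratio of each gene between subsets of epithelial cells (milk-rich against milk-poor, cycling against not, basal keratin against none), each point a tumor and each black bar the mean, with Foxa1 left out for its low counts. Pinc is higher in milk-rich cells of all 15 tumors, and Elf5 and Ehf are lower in cycling cells of all 11.

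None of the 30 within-tumor ratios differed between treatments past the adjusted threshold (exact permutation of treatment labels over tumors). The lowest unadjusted p was 0.0195 for Ehf in the basal keratin split (adjusted p = 0.584, exact test), with a mean log2 ratio of 0.11 over isotype and -0.12 over B20-4.1.1 tumors. Pinc was already lower in B20-4.1.1 tumors on both sides of the milk split, with 0.777 to 1.40 against 0.124 to 0.497 per 10000 in milk-rich and 0.141 to 0.262 against 0 to 0.110 in milk-poor cells. In cycling cells, however, Pinc overlapped between groups, at 0.0687 to 0.322 per 10000 in 6 isotype and 0 to 0.270 in 5 B20-4.1.1 tumors.

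Much of the Prlr signal sat in few cells. A set of 115 epithelial cells (0.857%) had at least 3 UMIs of the hormone-sensing genes Esr1, Pgr, Cited1 and Wnt4 together, a limit chosen after the values had been seen and with 8 cells exactly at it and 44 just below, at 2 UMIs. These cells are described here with no test. Prlr stood at 32.8 per 10000 in them and at 1.18 in the other epithelial cells, and they held 24.2% of all epithelial Prlr UMIs. Foxa1 stood at 1.97 against 0.00170, with 93.0% of its UMIs in these cells, and Gata3 at 4.88 against 2.59. Stat5a, at 0.619 against 0.267, was also higher, whereas Stat5b was similar at 0.242 and 0.278. Other members were low in them, with Elf5 at 0.262 against 2.80, Ehf at 0.746 against 6.02, Sox10 at 0.114 against 1.47 and Pinc at 0.0134 (2 UMIs) against 0.457. Sox9 stood at 2.51 and 3.08. Csn3 stood at 11.8 against 184.7, and Areg, an EGF receptor ligand of hormone-sensing cells that was not used to pick the cells, at 9.28 against 0.0444. Their median depth was 12174 UMIs, against 8653 in the others.

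The share of these cells varied between tumors. It was 0% to 1.33% of epithelial cells in isotype and 0.0998% to 7.50% in B20-4.1.1 tumors. It was highest in the 2 B20-4.1.1 tumors of high Prlr, at 7.50% (6 of 80 cells) and 5.31% (26 of 490), where the cells held 84.9% and 63.8% of the Prlr UMIs. In the isotype tumor with no such cell the share could reach 0.199% by its Wilson interval. Without these cells Prlr ranged from 0.975 to 1.75 per 10000 in isotype and from 0.788 to 1.15 in B20-4.1.1 tumors. The first isotype pool (1.61 to 1.75) then lay above all others and the second (0.975 to 1.06) inside the B20-4.1.1 range, and the log2 fold change turned from 0.10 to -0.36 (SE 0.11), with overlapping groups. The milk split changed as well, since 109 of the 115 cells were among the milk-poor and 3 among the milk-rich cells. Without them Prlr did not pass in the milk split (log2 ratio 0.15, adjusted p = 0.271, exact test), and Gata3 was higher in milk-rich cells in 14 of 14 tumors (0.33, adjusted p = 0.00122, exact test), while Ehf was lower in 12 of 14 (-0.23, adjusted p = 0.00183, exact test).

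**Figure D5:**
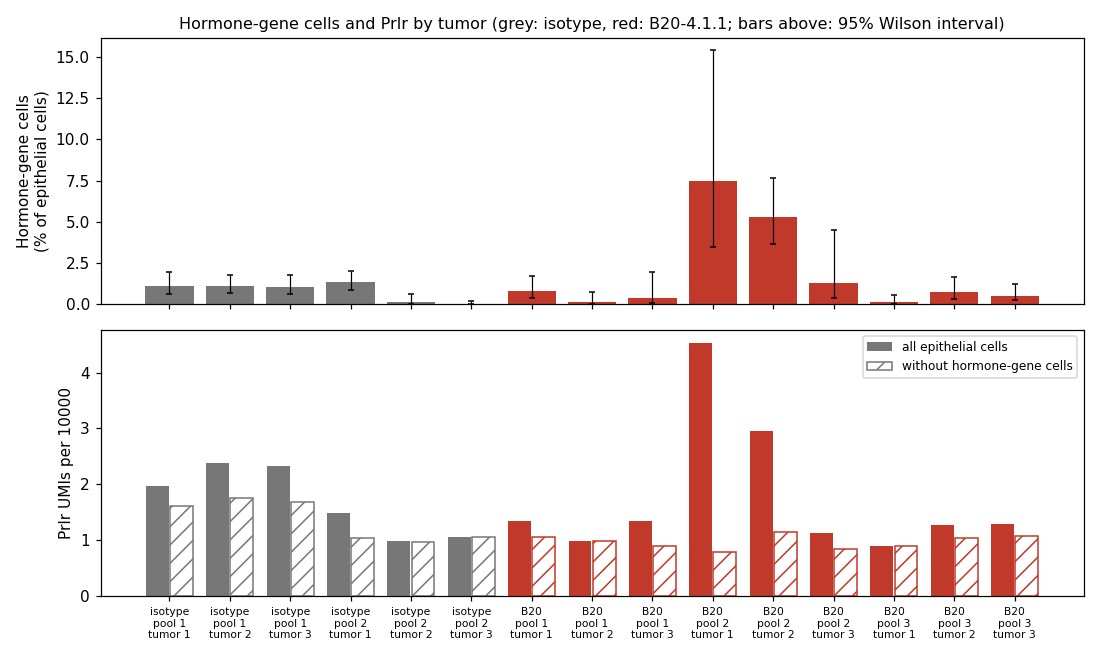
Share of epithelial cells with hormone-sensing genes in each tumor (upper panel, percent, bars of the 95% Wilson interval) and Prlr (lower panel, UMIs per 10000) with all cells and without these 115 cells. The 2 highest tumors, both of the second B20-4.1.1 pool, drop from 4.54 and 2.96 to 0.788 and 1.15.

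The 6 gene lists that follow were, like the 10 genes, chosen with earlier results on these tumors known. Their adjusted p-values are given as a description and are no independent support. The prolactin and JAK-STAT list beside these genes held 13 others, of which 11 were tested. In B20-4.1.1 epithelial cells 4 were called lower and 0 higher (median log2 fold change -0.07, against -0.01 over all genes). Over all genes 6.95% were lower and 7.41% higher, and with pool as a random effect 0 of the 11 were called (limma adjusted p = 0.0538 for Socs2 and 0.145 for Cish). Socs2, a STAT5-induced feedback inhibitor, was lower (-1.04, SE 0.16, edgeR adjusted p = 0.00102), at 0.774 to 1.13 per 10000 in isotype and 0.256 to 0.597 in B20-4.1.1 tumors. Cish was lower as well (-0.59, SE 0.10, edgeR adjusted p = 0.00181), at 0.153 to 0.212 against 0.0885 to 0.129. Neither overlapped between groups. Ccnd1, cyclin D1, fell by 0.79 (SE 0.20) and Erbb4, a receptor tyrosine kinase of the alveolar lineage, by 0.99 (SE 0.25) on the log2 scale, with edgeR adjusted p of 0.0145 and 0.0151. Both falls rested on the first isotype pool, at 1.50 to 1.74 per 10000 for Ccnd1 and 0.0619 to 0.0897 for Erbb4. The second pool stood at 0.604 to 0.739 and 0.0260 to 0.0374, against 0.375 to 0.717 and 0.0157 to 0.0553 in B20-4.1.1 tumors. Without the first pool the differences were -0.16 and -0.45 and not called. Jak2 (0.09, SE 0.11), Ghr (-0.07, SE 0.12) and Socs3 (0.42, SE 0.29), which like Cish held the motif TTCNNNGAA, were not called.

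Of 16 milk and secretory genes, all tested, 4 were lower and 1 was higher (median 0.02), against 6.95% and 7.41% over all genes. With pool as a random effect 0 of the 16 were called (lowest limma adjusted p among the 4 = 0.195, for Csn1s2a). Csn1s2a fell by 3.06 (SE 0.77), Csn1s1 by 2.29 (SE 0.56), Btn1a1, a milk fat globule protein, by 0.94 (SE 0.24) and Lalba, the lactose synthase subunit, by 0.63 (SE 0.15) on the log2 scale, with edgeR adjusted p of 0.0157, 0.0138, 0.0157 and 0.0140. Among these only Lalba showed no overlap, at 23.3 to 27.9 per 10000 in isotype and 9.83 to 20.02 in B20-4.1.1 tumors. Ltf, lactoferrin, rose by 0.55 (SE 0.18, edgeR adjusted p = 0.0483), a call lost without the first isotype pool (0.33). The calls of Csn1s2a (-1.48), Csn1s1 (-1.47), Btn1a1 (-0.57) and Lalba (-0.47) were lost without the second isotype pool. Csn3 (0.14, SE 0.14) and Wap (0.54, SE 0.62) were not called.

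Beyond the prolactin and milk genes, the calls were spread over lineages. Ly6a, the surface antigen Sca-1 (log2 fold change 1.97, SE 0.32), and Cd24a (0.36, SE 0.10) rose among 10 tested hormone-sensing luminal genes, and Cd14, the lipopolysaccharide co-receptor, rose (0.90, SE 0.20) and the receptor Notch1 fell (-0.53, SE 0.15) among 10 luminal progenitor genes. The basal keratins Krt17 (2.77, SE 0.44) and Krt14 (1.42, SE 0.20) rose among 9 tested basal genes, whose median log2 fold change was -0.12. Trp63, the basal master factor, did not pass (-0.21, SE 0.27). Of the rest Tagln (-1.50), Mylk (-0.81), Oxtr (-0.62) and Myl9 (-0.12) stood lower and Vim (0.60) and Snai2 (0.32) higher, with no call. Of 18 other lineage factors the ETS factor Etv5 (-1.06, SE 0.15), Trps1 (-0.57, SE 0.14) and Nfib (-0.40, SE 0.11) fell and the epithelial ETS factor Elf3 (0.87, SE 0.15) rose. The edgeR adjusted p of the called genes among these lay between 0.000694 and 0.0269. The falls of Notch1, Trps1 and Nfib rested on the first isotype pool, at 1.23 to 1.29, 14.8 to 15.2 and 14.7 to 14.9 per 10000. The second pool, at 0.642 to 0.662, 7.03 to 7.60 and 8.16 to 8.79, lay inside the B20-4.1.1 ranges. Without the first pool the log2 fold changes were -0.11 for Notch1, -0.11 for Trps1 and -0.073 for Nfib, and those of Cd14 (0.61) and Cd24a (0.17) also lost their calls. Of the 19 genes called in the lists, 7 (Socs2, Cish, Ly6a, Krt14, Krt17, Etv5 and Elf3) were called without each of the 5 pools in turn. Without the first B20-4.1.1 pool the calls of Ccnd1 (-0.76) and Nfib (-0.45) were lost. Those of Csn1s2a (-2.60 and -2.84), Trps1 (-0.54 in both fits), Notch1 (-0.51 and -0.47), Nfib (-0.36 and -0.38), Cd24a (0.36 and 0.33) and Ltf (0.53 and 0.40) were lost without the second and without the third. Csn1s1 (-1.89) and Btn1a1 (-0.71) also lost theirs without the second, and Erbb4 (-0.75) without the third. Over the 74 tested genes of the 6 lists 7 were higher and 12 lower, against 7.41% and 6.95% over all genes. Without the second isotype pool these counts were 18 and 16, and 6 were lower without the second and 7 without the third B20-4.1.1 pool. In all, 4 (Cish, Socs2, Lalba and Etv5) lay below and 2 (Cd14 and Krt14) above the isotype range in every B20-4.1.1 tumor. The former separation held for 1.27% and the latter for 1.49% of all genes tested. With pool as a random effect 1 of the 74 was called, Etv5 (limma adjusted p = 0.0439).

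Across the 15 tumors, the genes whose epithelial level was most like that of Pinc, after each pool's mean was subtracted, were Foxi1 (r = 0.967), Nbdy (0.960), Slc25a36 (0.939), Cldn2 (0.939) and Plekhf2 (0.935). For Elf5 they were Twistnb (0.883), Fam76a (0.867), Ggt1 (0.862), Utp23 (0.843) and Fh1 (0.841). These are the highest of 6449 genes compared over 15 points that share depth and pool, so they describe these tumors only. Without centring the Pinc values ranged from 0.0807 (Nbdy) to 0.840 (Cldn2).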

How the data were processed

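The authors sequenced 3 tumors per pool with 10x 3' chemistry, counted molecules with Cell Ranger 6.1.2 (matrix header) and assigned cells to tumors by oligonucleotide tags. The submitters' processing notes also name bcl2fastq, Seurat 4.3.0 and the build mm10. The deposited values are raw UMI counts per gene and cell, with no normalization. Cells assigned to more than 1 tumor were removed upstream, and no doublet caller was run.

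The 10 genes, the lists and the named-gene rule were chosen with earlier results of these data known. Cells were kept between 2500 and 27500 UMIs, limits that the methods of the study give, and up to 20% mitochondrial UMIs, a limit not stated there. Classes were gated on markers. Apart from the epithelial gate these were 2728 T-like cells (at least 2 UMIs of Cd3d, Cd3e, Cd3g and Trbc2) and 1431 macrophage-like cells (at least 5 of C1qa, C1qb, C1qc, Csf1r and Cd68). There were 994 cells with epithelial markers and a Ptprc UMI, and 75 passing several gates, left out. Classes of high or low hypoxia are not in the labels and were not compared. Counts were summed per tumor and fitted with edgeR 4.0.16 (TMM, filterByExpr, quasi-likelihood, Benjamini-Hochberg over all genes) in R 4.3.3, with DESeq2 1.42.0 and limma 3.58.1 as alternatives. Per-tumor ratios used a pseudocount of 0.5, tumors with at least 20 cells on both sides and exact permutation tests coded with numpy 2.4.6. Wilson intervals came from scipy 1.17.1, with pandas 2.3.3 under Python 3.11.15. The edgeR fit and the sign-flip test were tested on simulated data drawn independently with no pool effect, so their error rate under pooling was not tested. All 10 genes are named, and from each list up to 4 called genes of the largest fold change, plus uncalled genes needed to describe a list. For likeness, the 5 highest correlations with Pinc and with Elf5 are named. The fits without hormone-gene cells, without the 3 tumors of fewest epithelial cells and without each pool in T-like and macrophage-like cells were chosen after seeing the data. Wilson intervals and limits cover counting error only. The labels tie each tumor to its own mouse, so p-values measure spread between mice. The edgeR fit takes tumors of 1 pool as independent, although their consensus correlation in the voom fit was 0.536. Its p-values therefore leave out part of the spread between pools. Fewer transcripts per cell and fewer transcribing cells both lower a summed level, and shares of cells are given for that reason.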

Additional observations from a re-analysis of the deposited data

Results flagged for a closer look

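Of 132 groups of 4 to 10 tumors examined for a tumor far from the rest, 13 had one, and chance alone gives about 1 in 20. All but Lalba and Ly6a were in B20-4.1.1 tumors. Foxa1 was 0.266 UMIs per 10000 in tumor 1 of the second B20-4.1.1 pool (80 epithelial cells), against 0 to 0.118 in the others. In the same tumor Erbb4 stood at 0.0553 (others 0.0157 to 0.0315) and the Gata3 milk protein log2 ratio at -0.69 (others 0.00 to 0.52). In tumor 2 of that pool the Prlr basal keratin log2 ratio was -2.38, against -0.91 to -0.42. Cd14 was 7.77 in tumor 3, against 3.13 to 4.77.

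The Pinc basal keratin log2 ratio was -0.45 in tumor 2 of the third B20-4.1.1 pool, against -1.30 to -0.99 in the others. The Stat5a ratio of that split was -1.74 in tumor 2 of the first pool, against -0.58 to -0.04. Csn1s2a reached 3.70 per 10000 in tumor 1 of the first B20-4.1.1 pool, against 0.0443 to 0.730, and Cd24a was low there at 3.89 against 4.56 to 5.01. Trps1 at 5.21 and Nfib at 6.47 were low in tumor 1 of the third pool (others 6.63 to 7.74 and 7.82 to 9.06). Among isotype tumors, Lalba was 27.9 in tumor 3 of the second pool (others 23.3 to 25.1) and Ly6a 0.916 in tumor 1 of that pool (others 0.407 to 0.569).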

How the results depend on the processing

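No paired analysis was possible because the replicate numbers of the pools were given in accession order and pair no tumors. Of the 10 genes 1 was called lower. DESeq2, the gate without UMIs of Cd3d, Cd3e, C1qa, C1qb or Lyz2 and the fit without hormone-gene cells called 2. Voom with pool as a random effect and sums per pool called 0. Leaving out 1 pool or tumor gave 1 to 3. Pinc was called in 28 of 30 settings. Most of these re-fit the same contrast with 1 pool or tumor left out, so the count adds no support. Of the list genes, 12 were lower and 7 higher; voom gave 1 and 0, sums per pool 0 and 0, and leaving out the 3 tumors of fewest cells 7 lower, while leave-outs gave 6 (second B20-4.1.1 pool) to 16 lower and 5 to 18 higher (second isotype pool). Over all genes 1757 were called, against 33 with voom, 0 with sums per pool, 966 after thinning, 1062 without cycling or basal keratin cells, 407 without the first isotype pool and 5469 without the second. Without the isotype tumors of the first pool in turn the count was 849 to 920, and without a B20-4.1.1 pool 1029 to 1251. T-like cells gave 20 calls when the second isotype pool was left out and 223 when the third B20-4.1.1 pool was, and macrophage-like cells 0 to 572.

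The following values changed sign, and the cause was not tested. Among them the Prlr milk and Sox10 cycling ratios had passed before the change. Leaving out 1 pool or tumor moved the log2 fold change of Elf5 between -0.22 and 0.17, Stat5a -0.15 and 0.24, Stat5b -0.69 and 0.056, Prlr -0.39 and 0.48, Sox9 -0.14 and 0.38, Ehf -0.037 and 0.16 and Foxa1 -1.05 and 1.37. Prlr became -0.090 with voom, -0.16 after thinning, -0.36 (past the threshold) without hormone-gene cells and -0.10 without the 3 tumors, Sox10 -0.013 without the 3 tumors, and Foxa1 -0.26 with voom and -0.47 without the 3 tumors. For ratios, leaving out a pool gave Foxa1 against T-like cells -0.35 to 1.15, Ehf basal keratin -0.050 to 0.030, Foxa1 basal keratin -0.94 to 0.29, Sox10 milk -0.034 to 0.088, Stat5a cycling -0.036 to 0.30, Stat5b cycling -0.057 to 0.12 and Foxa1 cycling -0.41 to 0.79. Thinning gave Foxa1 against macrophage-like cells -0.51, Foxa1 basal keratin 1.58, Sox10 basal keratin -0.015, Stat5b milk -0.17, Sox10 milk -0.14 and Sox10 cycling 0.0070. A basal keratin limit of 1 UMI gave Elf5 0.12, Sox9 -0.0081 and Sox10 -0.027. Without hormone-gene cells the values were Foxa1 basal keratin 2.88 (adjusted p = 0.00183, exact test, with 1 UMI on the basal keratin side), Stat5a milk 0.029, Prlr milk 0.15, Sox10 milk -0.053 and Prlr cycling 0.035. A pseudocount of 0.1 gave Foxa1 cycling -1.60. Foxa1 rests on 315 UMIs, so its ratios cannot be read at this depth.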
